A study of Papio anubis with 588 samples.

Results

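The change of gene expression with a high cholesterol, high fat diet was compared between adipose tissue and muscle within the same baboons (Papio anubis, an Old World monkey). Animals were kept when all 4 biopsies passed the authors' quality control, that is adipose tissue and muscle on a low cholesterol, low fat diet at 0 years (LCLF) and on the high cholesterol, high fat diet at 2 years (HCHF). This gave 91 of 99 animals and 364 of 570 libraries, 91 in each of the 4 groups. Each of these 91 animals went from LCLF to HCHF and none stayed on LCLF. The diet therefore cannot be told apart from 2 years of age and calendar time. The breed, age, depot and muscle sampled are not given in the labels used here. For each animal and gene, the change was the HCHF minus the LCLF value of log2 CPM (CPM, counts scaled to the library total), in each tissue. The quantity tested was the change in adipose tissue minus the change in muscle, called the difference below. A positive difference means that the gene moved further up, or less far down, in adipose tissue.

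Adipose tissue stores fatty acids as triglyceride and releases them between meals, while skeletal muscle burns them in mitochondria. Both tissues read circulating fat and insulin through shared regulators, so the same gene can serve storage in the first and fuel use in the second. Long-chain fatty acids enter mitochondria through the carnitine shuttle, which malonyl-CoA, the product of acetyl-CoA carboxylase, inhibits.

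The libraries held 6.51 to 36.84 M counts (M, mega), with group medians of 18.25 to 20.06 M. The labelled tissues carried their markers. Myocyte markers took a median of 27.30% of counts in LCLF and 25.94% in HCHF muscle, against 0.0158% and 0.0160% in adipose tissue. In muscle their sum was higher on HCHF in 29 animals. Of the 12 myocyte markers tested, 5 fell in muscle and 0 rose (limma, adjusted p under 0.05). The difference was higher for 2, MYLPF and TNNT3, whose muscle changes were -0.36 and -0.23. The part of the myocyte markers in the muscle changes below was not tested. The defining adipocyte genes ADIPOQ, PLIN1, CIDEC and LEP together had a median of 3346 and 3695 CPM in adipose tissue and 4.54 and 5.62 CPM in muscle. In 1 LCLF adipose library myocyte markers took 2.69% of counts, and in 1 HCHF adipose library adipocyte markers took 0.0476%. In 4 animals a muscle library held the defining adipocyte genes at over 1% of their adipose median. Results were repeated without these 6 animals. Bulk tissue was sequenced, so fewer cells of a type and less RNA per cell cannot be told apart. The animals fell into 16 and 83 along the leading axis of their mean expression, taken as the 2 library batches of the labels, and 16 and 75 of these were complete.

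Of 13179 genes with enough counts in both tissues, 1736 (13.2%) had a difference past an adjusted p of 0.05 (limma with a trend over all genes, Benjamini-Hochberg). The change was higher in adipose tissue for 738 genes (5.6%) and lower for 998 (7.57%). Scaling both tissues together, in place of each alone, turned this split to 913 higher and 773 lower, so the balance of the directions rests on the scaling. A difference of at least 0.5 on the log2 scale was seen for 63 genes higher and 73 lower. In adipose tissue itself 2266 genes (17.2%) rose and 2973 (22.6%) fell, and in muscle 1039 (7.88%) rose and 1286 (9.76%) fell. Both tissues changed for 1062 genes, of which 915 moved the same way and 147 the opposite way.

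Genes were sorted by what each tissue did. A gene counted as opposite when both changes and the difference passed with the changes of opposite sign. This held for 147 genes (1.12%), 64 (0.486%) up in adipose tissue and down in muscle and 83 (0.63%) down in adipose tissue and up in muscle. These were small shifts: 21 of the 147 had a change of at least 0.2 in each tissue. A gene counted as moving in 1 tissue when that tissue's change passed and was at least 0.25, while the other tissue's did not pass and its 95% interval lay within 0.25 of 0. In adipose tissue alone 150 genes (1.14%) moved, 79 (0.599%) up and 71 (0.539%) down. In muscle alone 109 (0.827%) moved, 53 (0.402%) up and 56 (0.425%) down. The classes of 1 tissue rest on that bound. At 0.15 for both the size and the interval, 45 of the 150 and 51 of the 109 genes remained. Of the genes described below, CRYAB, TM7SF2, CPT1B and GCAT were among those lost at that bound and CDON, ITIH5, HEYL, HSDL2 and IER5 among those kept. Of all 1736, only the adipose change passed in 917, only the muscle change in 517, neither in 121, and both in the same direction in 34.

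**Figure D1:**
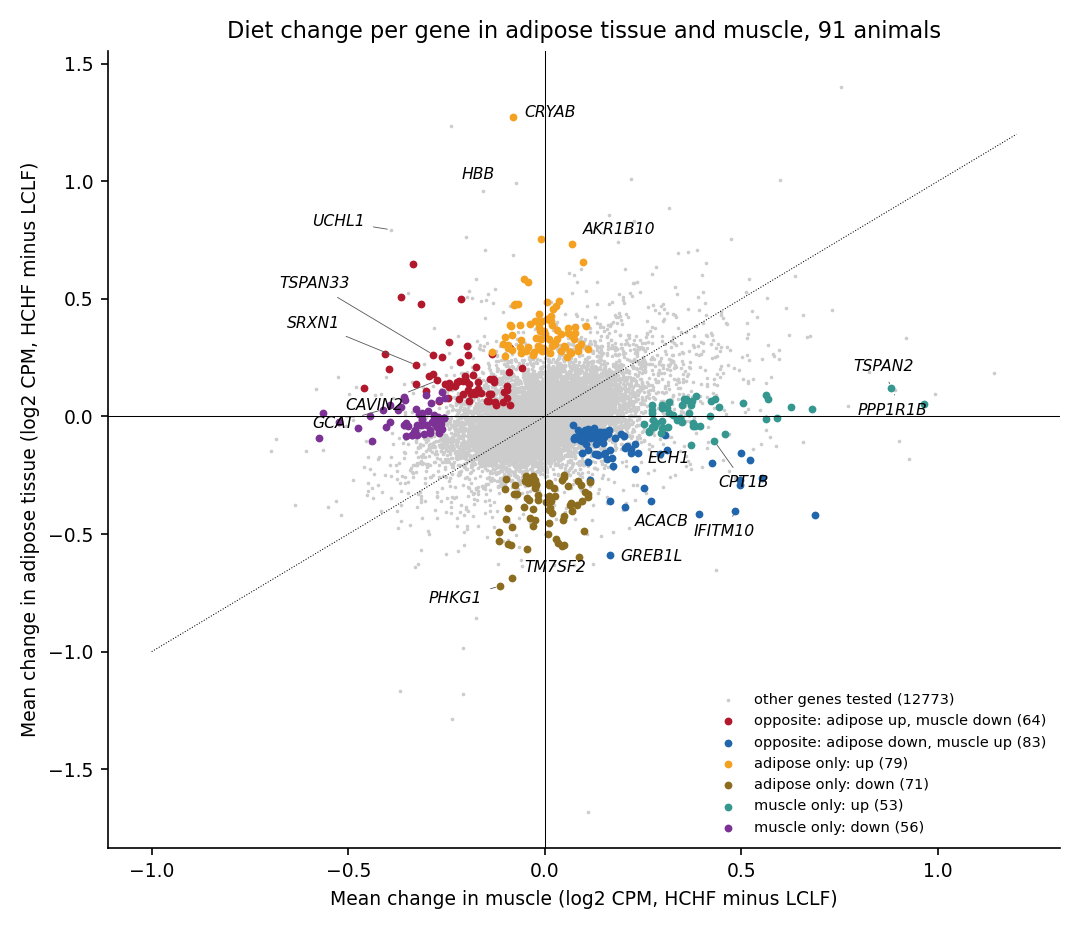
Each point is a gene tested, with its mean change in muscle on the x axis and in adipose tissue on the y axis (both in log2 CPM, HCHF minus LCLF, 91 animals). Colours mark the opposite genes (upper left and lower right) and genes that moved in 1 tissue (along the axes), and the dotted line marks equal changes. CRYAB stands highest of the genes coloured, at 1.27 in adipose tissue and -0.08 in muscle.

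The genes named as down in adipose tissue and up in muscle were IFITM10, ECH1, ACACB, MAP3K7CL, GRB10 and GREB1L, with PLIN5, SLC2A1 and CPT2 from the lists of lipid and glucose genes. ECH1, a mitochondrial and peroxisomal isomerase of unsaturated fatty acid oxidation, had the smallest p of the opposite genes named here. In adipose tissue its median was 171 CPM (50.6 to 349) on LCLF and 146 CPM (38.9 to 339) on HCHF, and in muscle 188 CPM (71.3 to 504) on LCLF and 224 CPM (81.7 to 523) on HCHF. The ranges over animals overlapped in each tissue, but within animals the shift was frequent: ECH1 fell in adipose tissue in 69 of 91, rose in muscle in 71, and did both in 52. The mean changes were -0.23 ± 0.05 and 0.23 ± 0.04 (log2, SE, n = 91, as for all changes below), and the difference was -0.45 ± 0.06 (limma adjusted p = 6.92e-09). In the 2 batches the difference was -0.51 (16 animals) and -0.44 (75 animals). ACACB, the carboxylase whose malonyl-CoA restrains the carnitine shuttle, had an adipose median of 890.5 CPM (187 to 3207) on LCLF and 696 CPM (167 to 2386) on HCHF. Its muscle median was 145 CPM (71.6 to 299) on LCLF and 171 CPM (68.9 to 2254) on HCHF. ACACB fell by 0.39 in adipose tissue and rose by 0.20 in muscle, a difference of -0.59 ± 0.11 (limma adjusted p = 9.82e-05). The difference of ACACB also passed with edgeR, but its muscle change did not, and the opposite call held in 7 of 12 alternatives. ACACB was lower in adipose tissue in 61 animals and higher in muscle in 59.

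The adapter GRB10, which binds and restrains the insulin receptor, moved the same way. Its adipose median was 102 CPM (67.9 to 185) on LCLF and 85.8 CPM (56.6 to 182) on HCHF, and its muscle median 66.4 CPM (27.1 to 147) on LCLF and 77.7 CPM (33.2 to 199.6) on HCHF. GRB10 fell in adipose tissue in 68 animals and rose in muscle in 57, with changes of -0.21 ± 0.04 and 0.17 ± 0.05 and a difference of -0.38 ± 0.05 (limma adjusted p = 6.05e-08). The batches gave -0.38 and -0.39. GREB1L, a gene required in kidney development, had changes of -0.59 ± 0.08 and 0.17 ± 0.05 and an adipose median of 15.0 CPM (3.82 to 55.5) on LCLF and 9.97 CPM (1.53 to 40.6) on HCHF. In muscle its median was 8.43 CPM (3.63 to 29.1) on LCLF and 9.62 CPM (2.09 to 36.8) on HCHF, and the opposite call held in 9 of 12 alternatives. IFITM10, a member of the interferon-induced transmembrane family, had changes of -0.40 ± 0.10 and 0.48 ± 0.14. Its muscle medians were nearly equal (5.05 and 5.03 CPM), while the highest muscle value was 33.9 CPM on LCLF and 113 CPM on HCHF. MAP3K7CL, a kinase-like gene, had changes of -0.18 ± 0.07 and 0.52 ± 0.18, and its opposite call held in 5 of 12 alternatives. PLIN5, the lipid droplet protein that ties droplets to mitochondria, had changes of -0.36 ± 0.11 and 0.27 ± 0.09 with a difference of -0.63 ± 0.14 (limma adjusted p = 0.00113), and its opposite call held in 8 of 12 alternatives. PLIN5 was low in adipose tissue (median 2.68 CPM on LCLF and 2.30 CPM on HCHF), and its muscle medians were 15.4 and 16.0 CPM. It fell in adipose tissue in 58 animals, rose in muscle in 50 and did both in 30. The glucose transporter SLC2A1 had changes of -0.16 ± 0.07 and 0.50 ± 0.16, but its muscle median was 0.613 CPM on LCLF and the opposite call held in 3 of 12 alternatives. CPT2, which reforms acyl-CoA inside the mitochondrion, had changes of -0.18 ± 0.06 and 0.17 ± 0.06, and its opposite call held in 5 of 12 alternatives.

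The genes named as up in adipose tissue and down in muscle were TSPAN33, SRXN1, CA11, CAV2, CAVIN2 and PAK1. CAVIN2 and CAV2 build caveolae, the small pits of the cell surface that adipocytes and endothelial cells hold in large number. CAVIN2, a coat protein, had an adipose median of 318 CPM (140.4 to 488) on LCLF and 352 CPM (169 to 544) on HCHF. In muscle it was 19.01 CPM (6.19 to 38.2) on LCLF and 15.4 CPM (5.26 to 34.3) on HCHF. CAVIN2 rose in adipose tissue in 61 animals, fell in muscle in 64 and did both in 45, with changes of 0.15 ± 0.03 and -0.27 ± 0.06 and a difference of 0.43 ± 0.07 (limma adjusted p = 2.75e-06). CAV2, a caveolin, had an adipose median of 309.6 CPM (110.1 to 806) on LCLF and 350.4 CPM (171 to 746) on HCHF with a change of 0.18 ± 0.05 there. Its muscle median was 18.8 CPM (5.90 to 61.1) on LCLF and 15.0 CPM (8.03 to 56.6) on HCHF, a change of -0.18 ± 0.05. Other caveola genes were looked up after these values were seen. CAV1 was opposite as well (0.11 ± 0.03 and -0.19 ± 0.05), EHD2 differed without a passing rise in adipose tissue (0.11 ± 0.05 and -0.18 ± 0.05), and CAVIN3 differed without a passing fall in muscle (0.12 ± 0.04 and -0.05 ± 0.05). The difference of CAVIN1 (0.10 ± 0.05, 95% interval 0.01 to 0.19) and of the muscle caveolin CAV3 (-0.14 ± 0.18, -0.50 to 0.23) did not pass. Endothelial markers moved beside these genes: 10 of 12 fell in muscle and 7 of 12 in adipose tissue, with 0 rising, and their summed level had medians of 369.9 and 330.7 CPM in muscle (range 152 to 1283 and 139 to 1130 CPM). With edgeR, 11 of 12 fell in muscle and 3 in adipose tissue. Their part in the fall of the caveola genes in muscle was not tested.

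SRXN1, which repairs oxidised peroxiredoxins and is induced by the stress regulator NRF2, had an adipose median of 15.9 CPM (5.62 to 30.2) on LCLF and 17.6 CPM (6.78 to 70.6) on HCHF. In muscle it was 13.9 CPM (3.90 to 61.1) on LCLF and 10.7 CPM (1.44 to 205) on HCHF. SRXN1 rose in adipose tissue in 69 animals and fell in muscle in 61, with changes of 0.22 ± 0.04 and -0.33 ± 0.10 (difference 0.55 ± 0.12, limma adjusted p = 0.000588). TSPAN33, a tetraspanin, had changes of 0.26 ± 0.10 and -0.28 ± 0.06, from an adipose median of 13.6 to 16.9 CPM and a muscle median of 5.70 to 4.87 CPM. CA11, a catalytically inactive member of the carbonic anhydrase family, had changes of 0.26 ± 0.08 and -0.20 ± 0.07. PAK1, a kinase of the actin skeleton and of glucose uptake in muscle, had changes of 0.15 ± 0.05 and -0.20 ± 0.07. The opposite call held in 12 of 12 alternatives for SRXN1 and TSPAN33, in 7 for CA11 and in 5 for PAK1.

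**Figure D2:**
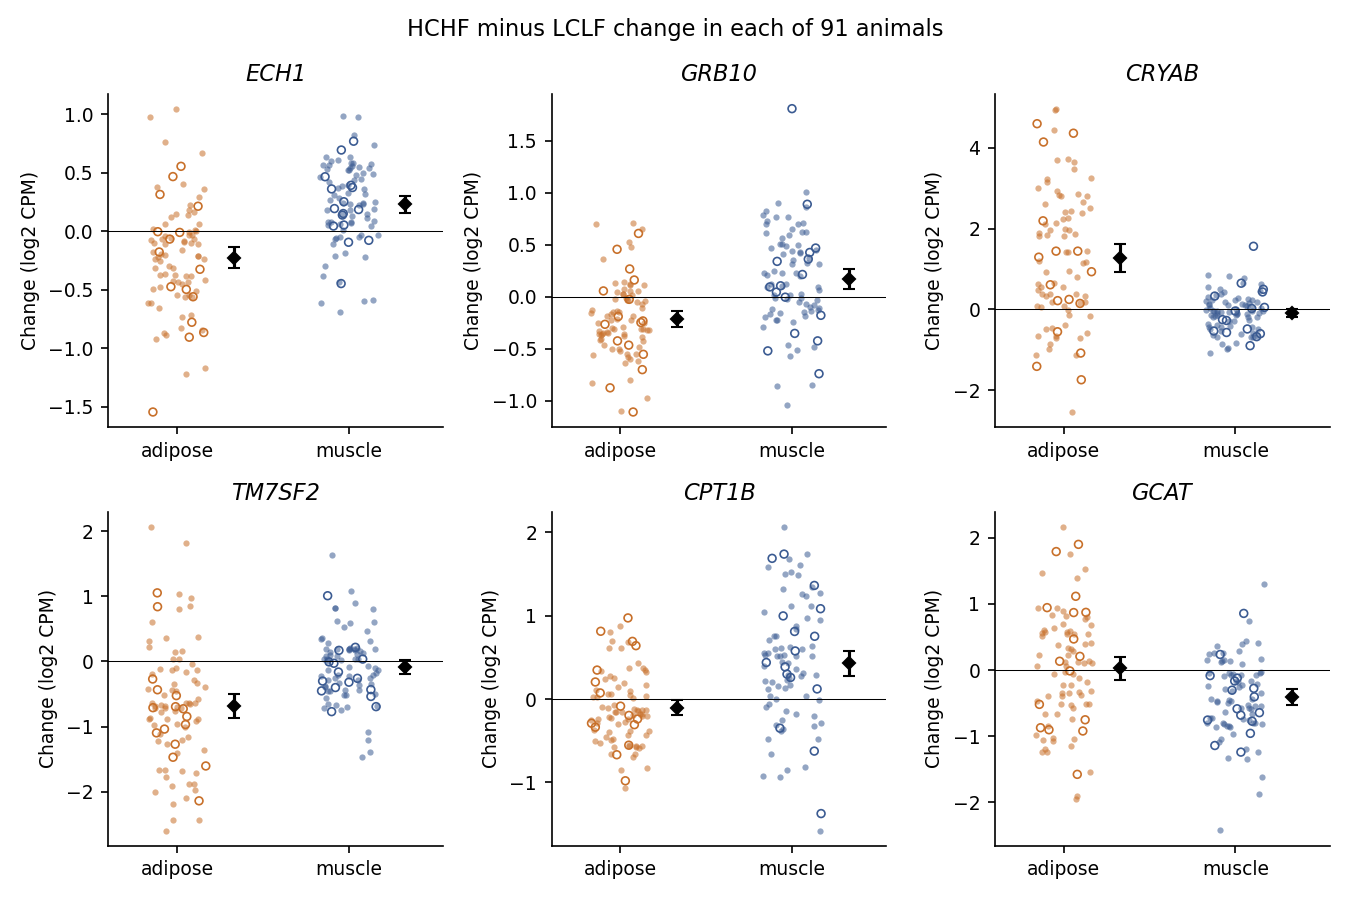
Each point is the change of an animal (log2 CPM, HCHF minus LCLF) in adipose tissue or muscle, filled for batch 2 and open for batch 1, and the diamond is the mean with its 95% interval (n = 91). ECH1 and GRB10 sit below 0 in adipose tissue and above 0 in muscle. CRYAB and TM7SF2 leave 0 in adipose tissue, and CPT1B and GCAT leave 0 in muscle. The adipose interval of CPT1B also lies just below 0 (-0.20 to -0.02), but that change did not pass after adjustment.

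The largest change confined to adipose tissue by the bounds above was that of CRYAB, a small heat shock protein that is abundant in muscle. Its adipose median was 127 CPM (21.5 to 3946) on LCLF and 450.0 CPM (32.5 to 8853) on HCHF, and its muscle median 1200 CPM (368 to 2327) on LCLF and 1151 CPM (306 to 3305) on HCHF. CRYAB rose in adipose tissue in 71 of 91 animals, a mean of 2.42-fold (1.27 ± 0.17), with single animals from -2.54 to 4.97. In muscle its change was -0.08 ± 0.05 (95% interval -0.18 to 0.02), and the difference was 1.35 ± 0.17 (limma adjusted p = 1.52e-08). Muscle RNA in the adipose biopsies was read beside it. The 17 myocyte markers summed to a median of 158 CPM on LCLF (range 73.8 to 26880) and 160.4 CPM on HCHF (63.3 to 1976), were higher on HCHF in 50 of 91 animals, and 0 of the 12 with enough counts in adipose tissue passed there. CKM, the muscle creatine kinase, was not among the 12 and had adipose medians of 0.147 and 0.17 CPM. Their part in the rise of CRYAB was not tested. Without the 6 animals named above the difference of CRYAB was 1.44.

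CDON, COBL, ITIH5, AKR1B10 and RUBCNL also rose in adipose tissue alone. CDON, a cell surface receptor of the hedgehog pathway, rose in adipose tissue in 77 animals (0.41 ± 0.05; median 63.3 to 89.2 CPM) with a change of 0.01 ± 0.06 in muscle. COBL, an actin nucleator, had changes of 0.59 ± 0.08 and -0.05 ± 0.05, and ITIH5, a hyaluronan-binding protein, had 0.42 ± 0.07 and 0.01 ± 0.05. AKR1B10, an aldo-keto reductase with close family members, had changes of 0.73 ± 0.12 and 0.07 ± 0.08, and RUBCNL, an autophagy gene, had 0.46 ± 0.08 and 0.02 ± 0.08. SREBF1, the regulator of fatty acid synthesis genes, rose in adipose tissue by 0.38 ± 0.12 against -0.01 ± 0.07 in muscle. The lysosomal protease CTSS (0.49 ± 0.08 and 0.04 ± 0.07) and the tetraspanin CD9 (0.29 ± 0.06 and -0.00 ± 0.07) were also in this class. Macrophage markers rose in both tissues, 11 of 11 in adipose tissue and 8 of 11 in muscle, and 1 of 11 differed: CD163, a scavenger receptor, had changes of 0.53 ± 0.09 and 0.07 ± 0.10. Their summed level had medians of 1161 and 1479 CPM in adipose tissue (range 178 to 3523 and 431 to 3593) and of 24.5 and 31.8 CPM in muscle (8.87 to 113 and 9.98 to 305). Their part in the rise of CTSS and CD9 was not tested.

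TM7SF2, a sterol reductase of cholesterol synthesis, fell in adipose tissue alone. Its adipose median was 72.9 CPM (22.5 to 196) on LCLF and 45.4 CPM (13.1 to 259) on HCHF, and its muscle median 11.2 CPM (4.68 to 29.8) on LCLF and 10.1 CPM (3.62 to 47.0) on HCHF. TM7SF2 fell in adipose tissue in 74 of 91 animals (-0.69 ± 0.09) with a change of -0.08 ± 0.05 in muscle (difference -0.60 ± 0.11, limma adjusted p = 3.40e-05). Other genes of its list did not all move this way. Of 18 cholesterol synthesis genes, 0 rose and 6 fell in adipose tissue, and 1 rose and 3 fell in muscle. The difference was lower for 2 and higher for 2, DHCR7 (0.39 ± 0.10) and PMVK (0.20 ± 0.04). Over all genes, 22.6% fell in adipose tissue, 9.76% fell in muscle and 13.2% differed. HEYL, a target of Notch signalling, had changes of -0.50 ± 0.09 and 0.01 ± 0.04, MTCL1, a microtubule protein, had -0.52 ± 0.08 and 0.03 ± 0.06, and GPX3, the plasma glutathione peroxidase, had -0.55 ± 0.14 and -0.09 ± 0.06. The phosphatidate phosphatase LPIN1 (-0.34 ± 0.09 and 0.01 ± 0.06), the growth factor VEGFA (-0.29 ± 0.05 and -0.02 ± 0.06) and the glucocorticoid-induced ZBTB16 (-0.39 ± 0.10 and 0.01 ± 0.06) also fell in adipose tissue alone. PHKG1, the muscle catalytic subunit of phosphorylase kinase, was low in adipose tissue, with a median of 8.73 CPM (2.03 to 54.1) on LCLF and 5.11 CPM (1.01 to 16.4) on HCHF. In muscle its median was 469 CPM (171 to 727) on LCLF and 430.0 CPM (137 to 783) on HCHF. PHKG1 had changes of -0.72 ± 0.09 in adipose tissue and -0.11 ± 0.05 in muscle. PERM1, a muscle regulator of mitochondrial genes, had changes of -0.60 ± 0.16 and 0.09 ± 0.08, and was kept in this class in 2 of 12 alternatives. The myocyte markers in adipose tissue are given above, their part in these values was not tested, and without the 6 animals the differences were -0.58 for PHKG1 and -0.70 for PERM1.

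In muscle alone, CPT1B, the outer carnitine palmitoyltransferase of muscle, rose. Its muscle median was 65.3 CPM (15.6 to 211) on LCLF and 90.0 CPM (19.4 to 230.2) on HCHF, and its adipose median 17.5 CPM (6.36 to 49.9) on LCLF and 16.1 CPM (6.90 to 37.9) on HCHF. CPT1B rose in muscle in 67 of 91 animals (0.43 ± 0.08) with a change of -0.11 ± 0.05 in adipose tissue (95% interval -0.20 to -0.02), a difference of -0.54 ± 0.09 (limma adjusted p = 1.96e-05). HSDL2, a peroxisomal protein of lipid metabolism, rose by 0.44 ± 0.07 in muscle against 0.04 ± 0.05, and the thiolase ACAA2 by 0.37 ± 0.07 against -0.12 ± 0.06 (class held in 8 of 12 alternatives). AQP7, the glycerol channel, had a change of 0.34 ± 0.09 in muscle against -0.01 ± 0.08 (class held in 7 of 12 alternatives). It is also one of the adipocyte markers that rose in muscle, given below, with LCLF medians of 186 CPM in adipose tissue and 11.9 CPM in muscle. IRS1, the insulin receptor substrate, had 0.27 ± 0.09 against -0.07 ± 0.05. Larger muscle changes with wider errors were those of TSPAN2, a tetraspanin (0.88 ± 0.17; muscle median 5.49 to 11.6 CPM), and ZNF385A, a zinc finger protein (0.68 ± 0.20). In adipose tissue the change of TSPAN2 was 0.12 ± 0.05 (95% interval 0.01 to 0.23), which did not pass after adjustment, and that of ZNF385A 0.03 ± 0.05. The muscle median of ZNF385A was 10.3 CPM on LCLF and 11.9 CPM on HCHF, while its highest muscle value was 162 and 357.5 CPM. ZNF385A rose in muscle in 57 animals. The class of TSPAN2 held in 8 of 12 alternatives. PTPN3, a tyrosine phosphatase, had a change of 0.38 ± 0.09 in muscle against 0.09 ± 0.05, and its class held in 5 of 12 alternatives.

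SIK1, IER5, GCAT, S1PR1 and UNC13B fell in muscle alone. GCAT, a mitochondrial enzyme of threonine breakdown, had a muscle median of 9.89 CPM (3.74 to 21.1) on LCLF and 7.54 CPM (2.79 to 38.9) on HCHF. Its adipose median was 12.4 CPM (3.05 to 54.0) on LCLF and 13.5 CPM (4.28 to 35.6) on HCHF. GCAT fell in muscle in 72 of 91 animals (-0.41 ± 0.06) with a change of 0.03 ± 0.09 in adipose tissue (difference 0.44 ± 0.09, limma adjusted p = 0.00055). SIK1, a salt-inducible kinase, had a change of -0.57 ± 0.14 in muscle against -0.09 ± 0.07, with its class held in 6 of 12 alternatives. IER5, an immediate early gene, had a change of -0.48 ± 0.11 against -0.05 ± 0.04, and UNC13B, a vesicle priming protein, had -0.35 ± 0.07 against -0.04 ± 0.04. The endothelial receptors S1PR1 (-0.35 ± 0.06 against -0.08 ± 0.05) and FLT1 (-0.34 ± 0.05 against -0.08 ± 0.04) also fell in muscle alone, beside the endothelial markers given above.

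Fatty acid oxidation was followed through 25 tested genes. In adipose tissue 2 rose and 7 fell, and in muscle 9 rose and 1 fell. The difference was lower in adipose tissue for 8 of the 25 and higher for 0. Beside this list and those below, 17.2% of all genes rose and 22.6% fell in adipose tissue. In muscle 7.88% rose and 9.76% fell, and the difference was lower for 7.57% and higher for 5.6%. The 7 that fell in adipose tissue are near the share of all genes, while the counts that rose in muscle and had a lower difference are above it. Without the 6 animals, 4 rose and 5 fell in adipose tissue, 8 rose and 1 fell in muscle, and the difference was lower for 6 and higher for 0. With the change of HBB as covariates, described below with the erythroid genes, 0 rose and 3 fell in adipose tissue and the difference was lower for 5. The median change over the 25 genes was -0.07 in adipose tissue and 0.11 in muscle, against -0.01 and 0.00 over all genes, and the median difference was -0.12 against -0.01. Among the genes that differed were the carnitine shuttle genes CPT1B, CPT2 and SLC25A20, the dehydrogenases ACADL and HADH, the trifunctional subunit HADHA and the thiolase ACAA2. HADH, which oxidises short hydroxyacyl-CoA, had changes of -0.19 ± 0.06 in adipose tissue and 0.12 ± 0.06 in muscle. ACADL, an acyl-CoA dehydrogenase, had changes of -0.20 ± 0.08 and 0.09 ± 0.08. Its difference only just passed (-0.29, limma adjusted p = 0.0489). It did not pass with edgeR (-0.33, adjusted p = 0.0515) or without the 6 animals (-0.24, limma adjusted p = 0.126). Nor did it pass with the HBB covariates (-0.31, limma adjusted p = 0.085) or joint scaling (-0.28, limma adjusted p = 0.0688). SLC25A20, the carnitine carrier, rose in both tissues, by 0.09 ± 0.04 and 0.26 ± 0.05. The difference of SLC25A20 did not pass with edgeR (-0.17, adjusted p = 0.0541) or with the HBB covariates (-0.16, limma adjusted p = 0.0615). PDK4, an inhibitor of pyruvate oxidation, had changes of -0.08 ± 0.10 and 0.04 ± 0.25, and its muscle interval (-0.45 to 0.53) does not bound the change. Adipocyte markers in muscle moved beside this list: their sum was higher on HCHF in 57 of 91 animals (median 1339 to 1465 CPM, range 631 to 2227 and 339 to 2351), with 3 of 9 rising. Most of that sum in muscle was GPD1 (medians of 1116 and 1149 CPM) and PLIN4 (226.7 and 262.8 CPM). ADIPOQ (0.519 and 0.593 CPM), CIDEC (0.436 and 0.498 CPM) and PLIN1 (3.63 and 3.63 CPM) were low there. The muscle changes of ADIPOQ (0.28 ± 0.20) and PLIN1 (0.17 ± 0.11) did not pass. The part of the adipocyte markers in the muscle values was not tested.

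**Figure D3:**
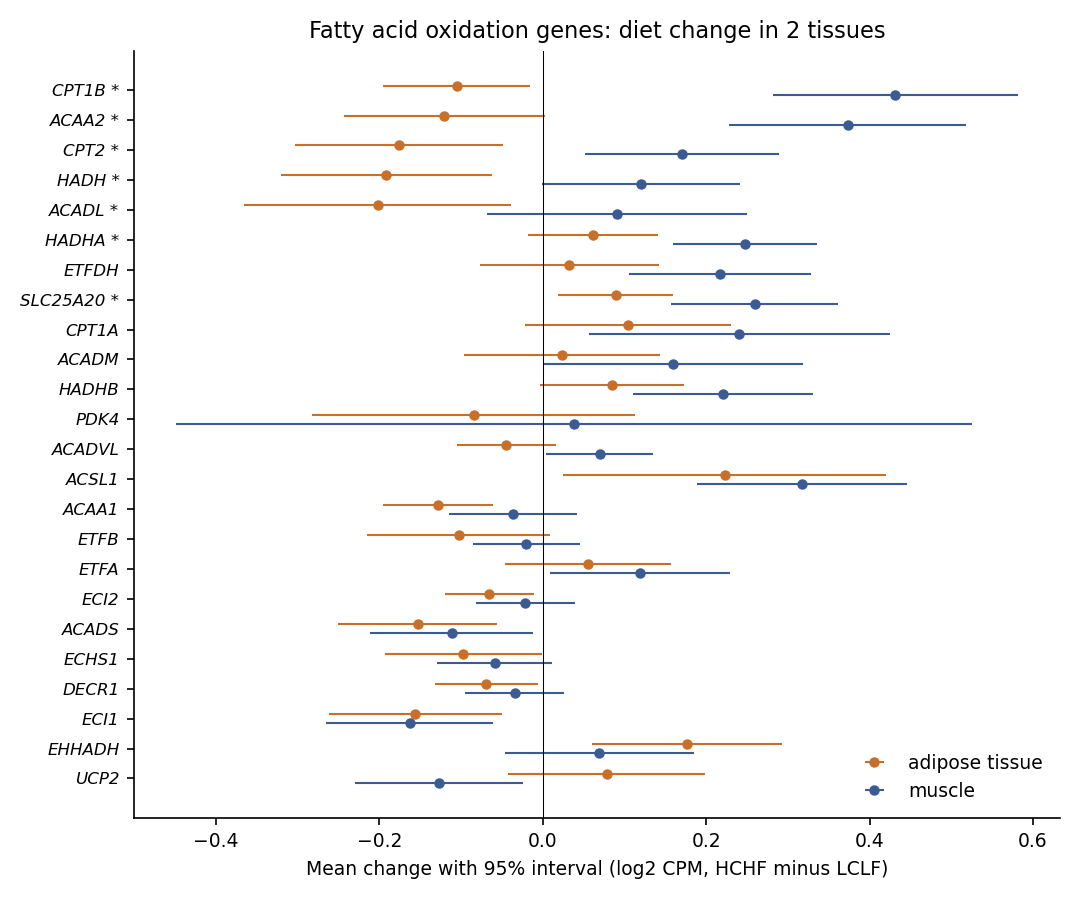
Points are the mean change (log2 CPM, HCHF minus LCLF, 91 animals) of 24 of the 25 fatty acid oxidation genes in adipose tissue and muscle, with 95% intervals, and an asterisk marks a difference past an adjusted p of 0.05. The muscle points of CPT1B, ACAA2 and CPT2 lie to the right of 0 and their adipose points to the left.

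Of 17 genes of triglyceride storage and lipolysis, 0 rose and 4 fell in adipose tissue, 4 rose and 0 fell in muscle, and the difference was lower for 4 and higher for 1. HILPDA, a lipid droplet protein that inhibits lipolysis, had changes of -0.14 ± 0.07 in adipose tissue and 0.19 ± 0.07 in muscle, and ABHD5, the activator of adipose lipase, had -0.20 ± 0.07 and 0.07 ± 0.05. MGLL, which splits monoglycerides, was the member with a higher difference (0.18 ± 0.06, limma adjusted p = 0.0498), which did not pass with edgeR (0.18, adjusted p = 0.132) or with the HBB covariates (0.18, limma adjusted p = 0.108). Of 15 fatty acid synthesis genes, 1 rose and 4 fell in adipose tissue, 1 rose and 1 fell in muscle, and 2 differed, both lower (1 of them without the 6 animals). These counts are near the shares over all genes, of which 22.6% fell in adipose tissue and 13.2% differed. FASN, the fatty acid synthase, had an adipose median of 3006 CPM (76.9 to 40100) on LCLF and 1739 CPM (281 to 27420) on HCHF. In muscle its median was 9.28 CPM (3.52 to 196) on LCLF and 10.7 CPM (2.68 to 221) on HCHF. FASN fell in adipose tissue (-0.64 ± 0.19) with a change of -0.06 ± 0.13 in muscle (difference -0.58 ± 0.18, limma adjusted p = 0.0177). The difference of FASN no longer passed with edgeR (-0.64, adjusted p = 0.0645) or without the 6 animals (-0.50, limma adjusted p = 0.0523), nor with marker scores (-0.40, limma adjusted p = 0.0871) or the change of HBB (-0.51, limma adjusted p = 0.0888) as covariates. MLXIPL, the carbohydrate response factor, had changes of -0.47 ± 0.09 and 0.21 ± 0.11 (difference -0.69 ± 0.14, limma adjusted p = 0.000238). SCD, the stearoyl-CoA desaturase, had wide errors in both tissues (-0.40 ± 0.33 and 0.20 ± 0.22).

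Of 13 antioxidant and NRF2 target genes, 6 rose and 2 fell in adipose tissue, 1 rose and 2 fell in muscle, and the difference was higher for 3 and lower for 2. The 3 were SRXN1, NQO1, a quinone reductase (0.34 ± 0.05 and -0.10 ± 0.05), and GSR, the glutathione reductase, which was opposite (0.16 ± 0.03 and -0.13 ± 0.05). The 2 were GPX3 and CAT, catalase, which rose in muscle alone (0.35 ± 0.08 against 0.05 ± 0.05). Of 18 clock genes, 3 differed, a share near the 13.2% of all genes, and all 3 were lower in adipose tissue: NR1D1 (-0.32 ± 0.10 and 0.26 ± 0.11), NR1D2 (-0.12 ± 0.05 and 0.06 ± 0.06) and CRY2 (-0.15 ± 0.04 and 0.14 ± 0.06). The difference of NR1D2 did not pass with edgeR (-0.18, adjusted p = 0.106) or without the 6 animals (-0.17, limma adjusted p = 0.0602). The outputs DBP (-0.32 ± 0.09 and -0.45 ± 0.10) and PER1 (-0.30 ± 0.06 and -0.23 ± 0.08) fell in both tissues, with differences of 0.13 ± 0.09 and -0.07 ± 0.07 (95% intervals -0.05 to 0.31 and -0.21 to 0.07). The hour of each biopsy is not given in the labels used here. Of 28 oxidative phosphorylation genes, 1 rose and 2 fell (0 without the 6 animals) in adipose tissue, 0 rose and 10 fell in muscle, and 1 differed: NDUFA5, a complex I subunit (0.12 ± 0.03 and -0.07 ± 0.04). Extracellular matrix genes rose in adipose tissue (16 of 22, with 0 falling) and in muscle (5, with 0 falling), and 2 differed, against 13.2% of all genes: LOXL1, a collagen crosslinking enzyme (0.28 ± 0.06 and -0.13 ± 0.06), and TGFB1, a fibrogenic cytokine (0.22 ± 0.05 and -0.08 ± 0.06). The collagen COL1A1 had changes of 0.46 ± 0.10 and 0.61 ± 0.15, with a difference of -0.15 ± 0.17 (95% interval -0.48 to 0.18). Fibroblast and progenitor markers rose beside the matrix genes, 9 of 10 in adipose tissue and 1 in muscle, and PI16 and MFAP5, markers of progenitor cells, had a higher difference (0.63 ± 0.21 and 0.56 ± 0.19). The sum of these markers had medians of 11120 and 12390 CPM in adipose tissue (range 5341 to 15570 and 6163 to 20030) and 648.8 and 701.2 CPM in muscle (275 to 1379 and 234.5 to 4755). Their part in the rise of the matrix genes was not tested.

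**Figure D4:**
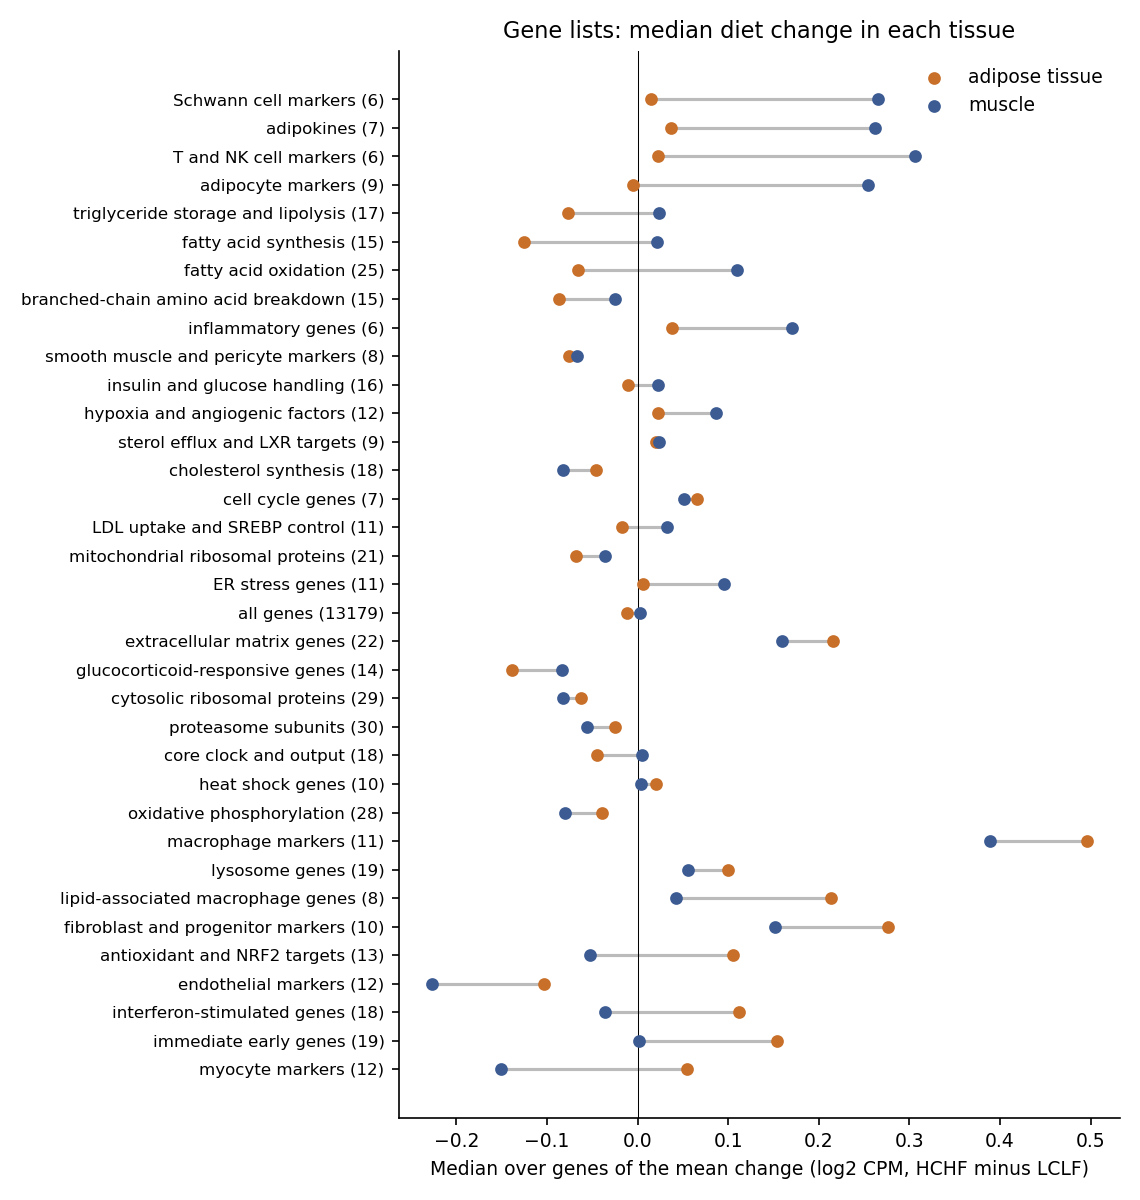
Each row is a gene list with at least 5 tested genes (number in brackets), and the points are the medians over its genes of the mean change in adipose tissue and muscle (log2 CPM, HCHF minus LCLF). For fatty acid oxidation the adipose median lies at -0.07 and the muscle median at 0.11, and for macrophage markers both lie above 0.

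Among genes with a symbol and a mean of at least 5 CPM in each tissue, CRYAB, UCHL1 and HBB had the 3 highest differences. UCHL1, a neuronal ubiquitin hydrolase, had an adipose median of 13.1 CPM (5.58 to 113) on LCLF and 21.4 CPM (7.74 to 297) on HCHF. In muscle it was 55.8 CPM (7.98 to 203) on LCLF and 51.3 CPM (5.51 to 324) on HCHF. UCHL1 rose in adipose tissue in 76 animals (0.79 ± 0.10), its muscle change did not pass (-0.39 ± 0.15), and the difference was 1.18 ± 0.18 (limma adjusted p = 9.54e-07). HBB, a globin of red blood cells with close family members, had an adipose median of 798 CPM (103 to 7100) on LCLF and 1559 CPM (145 to 31230) on HCHF. In muscle it was 92.2 CPM (3.11 to 2941) on LCLF and 63.1 CPM (3.85 to 4588) on HCHF. HBB rose in adipose tissue (0.96 ± 0.17) with a change of -0.16 ± 0.26 in muscle, and ALAS2, the erythroid enzyme of heme synthesis, gave 0.99 ± 0.17 and -0.07 ± 0.25. Erythroid RNA as a whole was higher beside it: the 6 erythroid markers summed to a median of 850.6 CPM on LCLF (99.8 to 7360) and 1606 CPM on HCHF (155 to 30580), and were higher on HCHF in 62 of 91 animals, against 85.8 and 65.6 CPM in muscle. With the change of HBB in both tissues as covariates, a fit chosen after seeing the data, the difference of ALAS2 was 0.14, that of CRYAB 1.17 and that of ECH1 -0.42. At the other end were CHI3L1, a secreted glycoprotein (-0.65 ± 0.13 and 0.44 ± 0.21), IFITM10, and PPP1R1B, a phosphatase inhibitor that rose in muscle (0.11 ± 0.10 and 0.89 ± 0.12). The muscle change of CHI3L1 did not pass. Its muscle medians were low, 1.91 CPM (0 to 22.1) on LCLF and 2.42 CPM (0 to 197.6) on HCHF.

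The differences were read again within the batches. With a batch term, 0 of 13179 genes had a difference that itself differed between batches (limma, adjusted), and 805 did at an unadjusted p under 0.05. Genes were then sorted in batch 2 alone (75 animals) and their difference read in batch 1 (16 animals), which had no part in the sorting. The sign was the same for 35 of 38 genes up in adipose tissue and down in muscle and for 44 of 46 down in adipose tissue and up in muscle, against 65.2% of all 13179 genes. It was also the same for 86.1% of all 577 genes whose difference passed higher in batch 2 and 88.8% of all 803 that passed lower. For genes moving in adipose tissue alone it was the same for 68 of 76 that rose and 62 of 66 that fell, and for muscle alone for 21 of 23 and 41 of 46. Both tissues kept their sign for 27 of the 38 and 31 of the 46, against 51.1% of all genes, 59.1% of those 577 and 59.2% of those 803. In batch 1 alone, 0 genes passed for the difference by limma after adjustment, with 515 higher and 648 lower at an unadjusted p under 0.05.

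**Figure D5:**
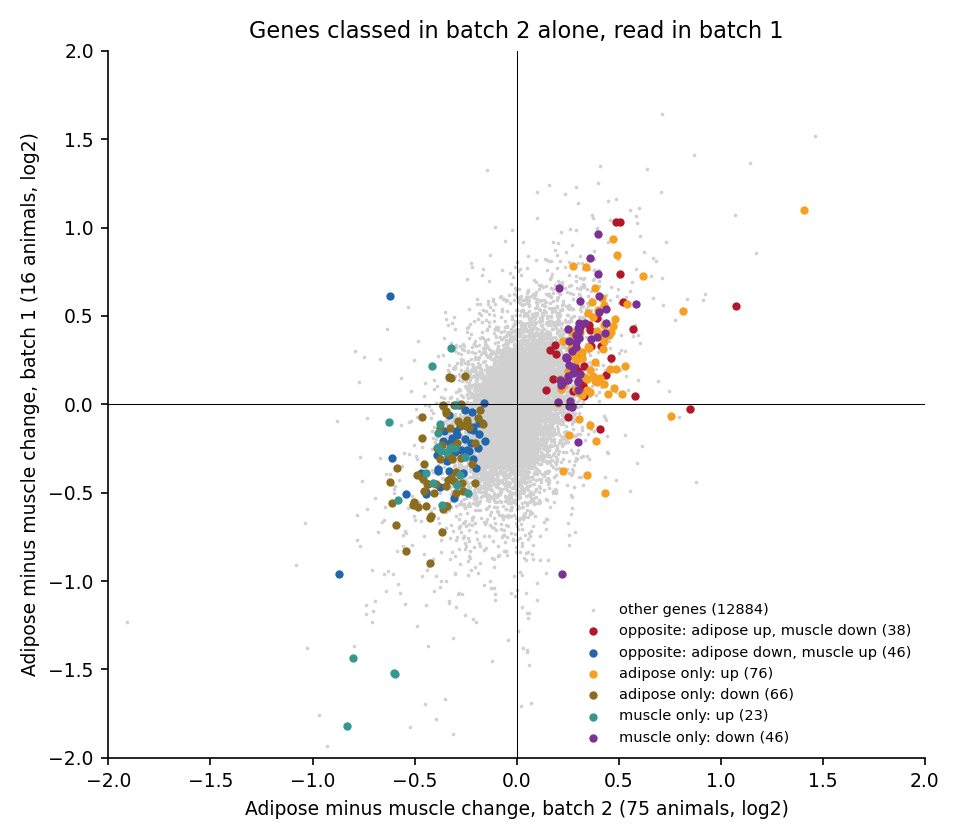
Each point is a gene, with its adipose minus muscle change in batch 2 on the x axis (75 animals) and in batch 1 on the y axis (16 animals), both in log2 CPM, coloured by the class it had in batch 2 alone. Of the genes up in adipose tissue and down in muscle 35 of 38 lie above 0 on the y axis, and 2 genes fall outside the axes.

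Liver, sampled in 78 of these animals at both times, took no part in the sorting. It was read after the classes were seen, by the same limma test on the change. Of all 12489 genes of the comparison that had enough counts in liver, 22.7% rose and 21.6% fell. Of 56 genes up in adipose tissue and down in muscle, 27 rose in liver and 9 fell. CAVIN2 (0.86 ± 0.08), CAV2 (0.49 ± 0.07), SRXN1 (0.48 ± 0.07), TSPAN33 (0.35 ± 0.05) and PAK1 (0.27 ± 0.07) were among those that rose, as in adipose tissue, while the liver value of CA11 (-0.06 ± 0.07) did not pass. Endothelial markers rose in liver beside the caveola genes, 12 of 12 with a median change of 0.70 (PECAM1 0.85 ± 0.06, TEK 0.71 ± 0.07, FLT1 0.69 ± 0.08), and their part in these liver values was not tested. Of 81 genes down in adipose tissue and up in muscle, 10 rose in liver and 21 fell. ACACB (-0.24 ± 0.07) and GRB10 (-0.11 ± 0.05) fell, and the liver value of ECH1 (-0.08 ± 0.06) did not pass. Of 69 genes that rose in adipose tissue alone, 31 rose in liver and 4 fell. Of 65 that fell in adipose tissue alone, 13 rose and 21 fell, and TM7SF2 was among those that fell (-0.58 ± 0.06). Of 45 genes that rose in muscle alone, 16 rose in liver and 5 fell, and of 50 that fell in muscle alone, 21 rose and 6 fell. These liver shares were not tested against the share of all genes.

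Some genes could not be compared because they had enough counts in a single tissue, 3657 in adipose tissue and 436 in muscle. LEP, the fat hormone leptin, had a median of 297.8 CPM on LCLF and 511.7 CPM on HCHF in adipose tissue, and 0.145 and 0.297 CPM in muscle. CHIT1, a macrophage chitinase, had adipose medians of 14.5 and 33.6 CPM, and TREM2, a lipid receptor of macrophages, 6.83 and 10.2 CPM. The mitochondrial carrier UCP3 had muscle medians of 220.5 and 174.1 CPM and adipose medians of 0.346 and 0.363 CPM.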

How the data were processed

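RNA was extracted from frozen biopsies and the labels' protocols describe 2 library batches. FastQC, STAR 2.7.7a and featureCounts are listed in the submitters' processing notes. Not given in the sources used here are build, annotation and use of strand, which leaves overlapping genes and near-identical copies uncertain. Gene counts, whole numbers without scaling, were deposited by the authors before and after their quality control, and the table after it was used. Libraries were matched to animal, tissue and time by their column names. Each tissue was scaled by TMM (edgeR 4.0.16), genes were filtered by filterByExpr (minimum count 10) in both tissues, and log2 CPM used a prior count of 2. Changes and their difference were tested by limma 3.58.1 with a trend on mean level, in R 4.3.3. A log2 CPM test was used in place of a count test because the comparison is defined on log2 CPM changes, and edgeR was an alternative. The members and gene lists were chosen with earlier results of these data known. Genes named for a class or for the largest differences had a symbol and a mean of at least 5 CPM in each tissue. From the classes these were 6 per direction of the opposite class, 6 per direction in adipose tissue and 5 in muscle. For these the direction held in at least 60% of animals. The 3 largest differences each way were added. Up to 3 genes per list whose difference passed were named at any level, without the 60% rule. So were 33 anchor genes whatever their result, of which 27 were tested. The 38 lists held 603 entries, 568 in the table. Libraries of an animal pair by the labels: deviations of its 2 times correlated at a median of 0.54 in adipose tissue and 0.49 in muscle, over 0.1 in 89 and 85 of 91 animals, against -0.01 and 0.01 between animals. Tested on simulated data (1500 genes, 200 changed), the difference test found 48% of genes shifted by 0.2 and 91% at 0.5, and 4.14% of its calls were false. The batches are not given per animal in the labels and were taken from the gap in the leading axis (19.9% of variance, gap of 33.7 against 7.96 for the next). Alternatives were scored for the named classes over 12 fits that kept the animal and at least 75 animals: RLE size factors, joint scaling, a prior count of 0.5, a stricter filter of mean CPM 1, no filter, limma-voom, edgeR, batch 2, all libraries before quality control, marker scores as covariates and, chosen after seeing the data, the 6 animals left out and HBB covariates. Other genes of the caveola, fatty acid, antioxidant and storage groups named beyond this rule were chosen after their values were seen. The values of 1 gene of the fatty acid oxidation list are not reported here on their own. Figures used matplotlib 3.10.9.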

Additional observations from a re-analysis of the deposited data

Results flagged for a closer look

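The diet change differed between adipose tissue and muscle, by a test of the difference itself, for 738 genes higher in adipose tissue and 998 lower (limma, adjusted p under 0.05, 91 animals). Among the opposite genes named, the difference (adipose change minus muscle change, log2) was 0.55 for TSPAN33 and SRXN1, 0.46 for CA11, 0.43 for CAVIN2, 0.36 for CAV2 and 0.35 for PAK1. It was -0.89 for IFITM10, -0.76 for GREB1L, -0.71 for MAP3K7CL, -0.59 for ACACB, -0.45 for ECH1 and -0.38 for GRB10. Among genes with a symbol and a mean of at least 5 CPM in each tissue, the 3 highest and 3 lowest included IFITM10. The differences of the 5 further genes were 1.35 for CRYAB, 1.18 for UCHL1, 1.12 for HBB, -1.09 for CHI3L1 and -0.78 for PPP1R1B.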

How the results depend on the processing

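Counts of genes are given as difference higher, difference lower, opposite, adipose alone and muscle alone, which were 738, 998, 147, 150 and 109. With no replicate block, the animals' pairing left out, limma gave 76, 141, 4, 30 and 9, and DESeq2 gave 169, 266, 14, 43 and 30. With edgeR and the animal block the counts were 648, 934, 118, 135 and 107, and 74 of the 147 opposite genes were shared, so which genes are opposite depends on the tool. In batch 1 alone (16 animals) and without animals in doubt by the planned rule (18 left), the counts were 0, 0, 0, 0 and 0 and 1, 1, 0, 0 and 0 by limma. At an unadjusted p under 0.05 these gave 515 and 620 higher, 648 and 743 lower, and 25 and 61 opposite. Both settings test fewer animals. Batch 2 alone gave 84 opposite and 69 muscle alone, no filter on low counts 80 opposite and 385 adipose alone, all libraries before quality control 87 opposite, and a bound of 0.15 gave 227 muscle alone (51 of the 109 shared) and 183 adipose alone (45 of the 150 shared). The cause was not tested. Without the 6 animals of a rule chosen after seeing the data the counts were 734, 981, 134, 154 and 125. The difference of ZNF385A turned to 0.39 under the planned rule and that of MYLPF to -4.62 with DESeq2 and no replicate block. The shallowest library, at 6.51 M counts (M, mega), limits what can be seen of low genes.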
